A study of Mus musculus with 8 samples.

Results

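The genes described here encode the translation initiation and elongation factors of mouse thymocytes at the CD4 and CD8 double-negative stage 3 (DN3). They were taken as every row of the deposited expression table whose symbol begins with Eif or Eef followed by a digit, leaving out the eIF2α kinase genes (Eif2ak) and the Y-linked Eif2s3y. This gave 63 genes of the 16538 in the table. RNA-seq was done on DN3 thymocytes sorted by flow cytometry from C57BL/6 mice at 6 weeks of age, with 4 control and 4 Sel1l CKO libraries. Control mice were Sel1l-f/f, so that both groups carried the floxed Sel1l alleles. Sel1l CKO mice were Sel1l-f/f hCD2cre+, with a CD2-driven iCre that deletes the floxed alleles from an early stage of T cell development, before DN3. SEL1L is the adaptor of the HRD1 ubiquitin ligase in ER-associated degradation, the pathway that removes misfolded proteins from the endoplasmic reticulum. The labels do not say whether each library came from 1 mouse, and p values therefore measure the spread between libraries.

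Translation begins when eIF1, eIF1A, eIF3, eIF5 and the eIF2 ternary complex, which carries the initiator tRNA, load the small ribosomal subunit, and when eIF4F (the cap-binding protein eIF4E, the helicase eIF4A and the scaffold eIF4G) brings it to the capped mRNA. Stress kinases such as PERK phosphorylate the α subunit of eIF2, which then traps its exchange factor eIF2B, and the 4E-BP proteins hold eIF4E away from eIF4G until mTORC1 phosphorylates them. Elongation runs on eEF1A, which delivers tRNAs, and eEF2, which moves the ribosome along the mRNA. Thymocytes passing β-selection at the DN3 stage grow and divide quickly and are known for high rates of protein synthesis. These proteins are largely controlled by phosphorylation, which RNA levels do not show.

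The libraries held 32900253 to 50401359 reads counted on genes. Where 4 values are given for a genotype they are those of replicates 1 to 4 in that order, values after ± are SD over the 4 libraries (n = 4), and SE is the standard error of a log2 fold change. Sel1l RNA was 1.67 ± 0.114 RPKM in control cells and 1.09 ± 0.222 RPKM with the deletion (limma adjusted p = 0.0327), and no Sel1l CKO library reached a control library. Replicates 1 and 2 alone gave a log2 difference of -0.89 and replicates 3 and 4 alone one of -0.30, and 10 of 19 alternatives called it (adjusted p of 0.0147 to 0.0981). All 10 DN3 markers passed 1 RPKM and 0 were called, with 9 lower in Sel1l CKO and a median log2 fold change of -0.27. Il2ra, which encodes the CD25 of the sorting gate, was the 1 marker that was higher, with means of 17.5 RPKM (control) and 19.6 RPKM (Sel1l CKO). For 4 of the 10 all Sel1l CKO libraries fell short of all control libraries, where this held for 5.59% of all tested genes. They were Cd3e (log2 fold change -0.31, limma adjusted p = 0.0578), Cd3g (-0.28, limma adjusted p = 0.0938), Dntt (-0.31, limma adjusted p = 0.148) and Notch3 (-0.60, limma adjusted p = 0.179). The 5 B cell markers summed to at most 0.252 RPKM in any library, and the 5 erythroid markers in the table to at most 2.66 RPKM. The 6 myeloid and dendritic markers in the table summed to 18.8 to 22.4 RPKM in control and 13.6 to 17.7 RPKM in Sel1l CKO. Of these, 3 were tested, all 3 were lower in Sel1l CKO and 0 were called. They were Lyz2 (log2 fold change -0.86, limma adjusted p = 0.0611), Cst3 (-0.31, limma adjusted p = 0.0751) and Cd68 (-0.32, limma adjusted p = 0.657). Lyz2 and Cst3 fell without overlap between genotypes, while Cd68 overlapped. Csf1r, which was not tested, was at or near 0. For some genes replicates 3 and 4 stood apart from replicates 1 and 2 in both genotypes. Ppp1r15a, an inducible phosphatase subunit that acts on eIF2α, was at 32.8, 29.1, 162 and 171 RPKM in the control libraries against 25.2, 24.1, 63.6 and 69.8 RPKM in the Sel1l CKO libraries. Other genes did not split this way in control. The ribosomal protein genes averaged -0.087, -0.003, 0.130 and -0.040 relative to the control mean (log2) in control replicates 1 to 4. The labels name no batch, and the grouping of replicates 1 and 2 against 3 and 4 was read from these expression values. Each pair of replicate numbers holds both genotypes. Differences within each pair are given below for the called members, Eif4g1 and the members as a whole.

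In Sel1l CKO DN3 thymocytes, 1 factor gene changed strongly and nearly all others stayed close to their control level. Eif4ebp1, which encodes the eIF4E inhibitor 4E-BP1, rose to a mean 5.63 times that of control, and Eif1a, which encodes a form of the scanning factor eIF1A, rose to 1.37 times. No factor gene fell at the same threshold. Of the 63 members, 55 had a mean of at least 1 RPKM and were tested, with log2(RPKM + 0.1) values compared by limma and p values adjusted over all 6512 genes tested. The 2 members that rose at an adjusted p under 0.05 are 3.64% of those tested, where 4.27% of all tested genes rose, and against the 0 that fell stand 1.01% of all tested genes, or 5.28% for both directions. As a group the factors were thus called about as often as other genes. For 8 members all Sel1l CKO libraries exceeded all control libraries (Eif4ebp1, Eif1a, Eif2d, Eif3b, Eif3c, Eif3d, Eif3g and Eif4g1), where this held for 9.15% of all tested genes. For 1 member (Eif4g3) all fell short of them, where this held for 5.59%. At an unadjusted p under 0.05 there were 12 members, 21.8% of those tested, against 20.8% of all tested genes.

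Most of the remaining differences could be bounded. For 51 of the 55 tested members the 95% interval of the difference lay within 1.5-fold in either direction, and the exceptions were Eif4ebp1, Eif1a, Eif2s2 and Eif3j2. The direction was uneven, with 42 of 55 members (76.4%) higher in Sel1l CKO and a median log2 fold change of 0.09, against 52.6% and 0.01 for all tested genes. This was not particular to the factors, as 78% of the tested ribosomal protein genes and 90.9% of the proliferation markers were higher. Over all genes with a mean of at least 5 RPKM the median was 0.046. The 8 members under 1 RPKM were left out of this fit and are given with their groups. In bulk RNA, fewer cells of a kind and less RNA per cell cannot be told apart.

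**Figure D1:**
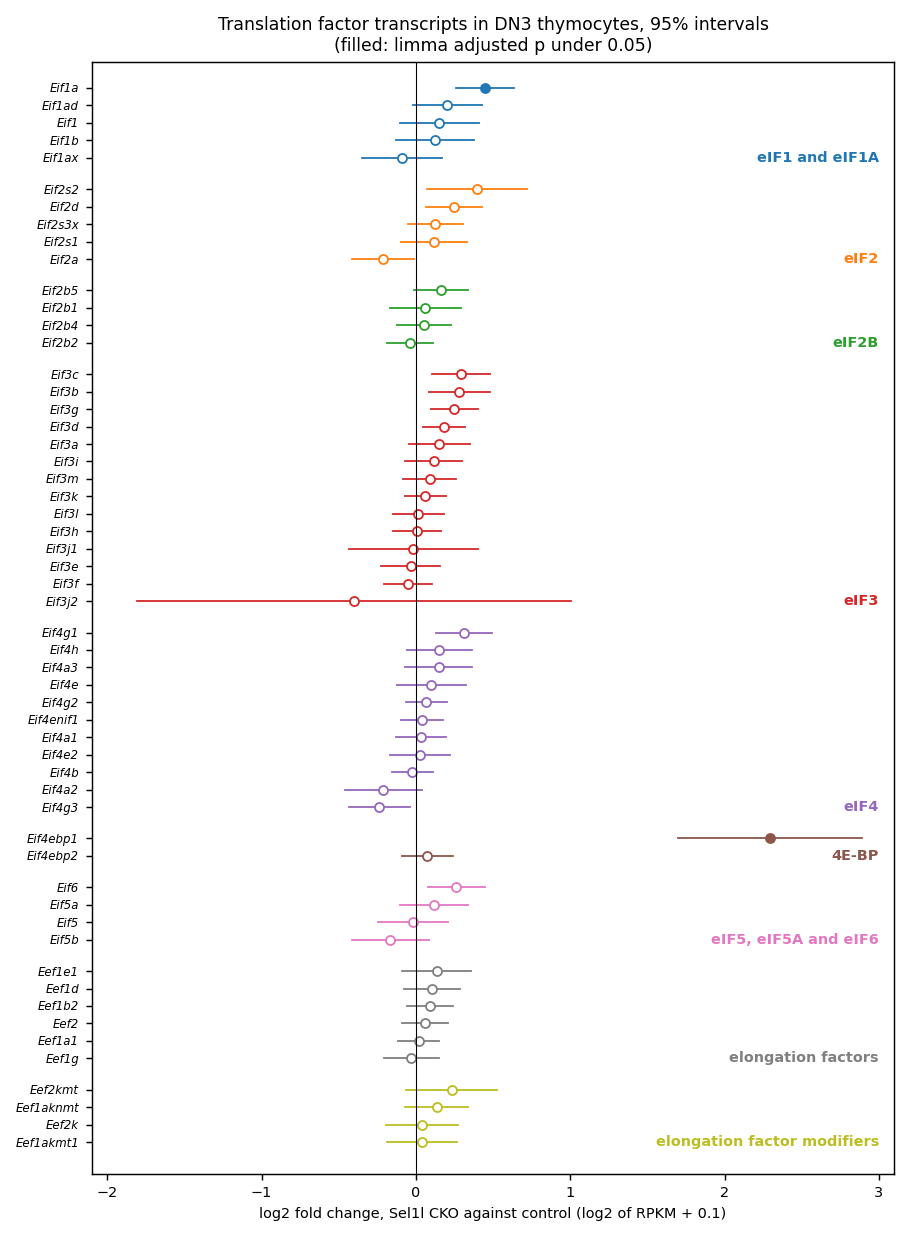
The log2 fold change of each of the 55 tested factor genes in Sel1l CKO against control, on the log2(RPKM + 0.1) scale, with its 95% interval as a line. Genes are grouped by role and ordered by size within a role, and filled points mark a limma adjusted p under 0.05. Eif4ebp1 (2.29) and Eif1a (0.45) are the filled points, while most intervals of the other genes include or come close to 0.

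Sequence before the start sites was looked at for motifs of factors that act on growth and stress genes, namely the E box CACGTG bound by MYC and MAX, the C/EBP-ATF composite TGATGNAAN, the ER stress response element, and TGACGTGG, a core bound by XBP1 and ATF6. Both strands were searched in RefSeq promoter windows of 250 bases before to 50 bases after each start (build GRCm38.p6), where 47 of the 63 members had an entry. An E box was held by 13 of the 47 members (27.66%), against 12.78% of the tested genes and 8.09% of all genes with an entry. The composite was held by 2 members (4.26%, against 2.36% of tested genes), the TGACGTGG core by 1 (2.13%, against 1.11%) and the ER stress response element by 0 (against 0.23%). The E box is its own reverse complement. It is shown for some of the 13 members that held one, namely Eif4e, Eif4g1 and Eif4a1 from eIF4F and the abundant Eif5a and Eef2. The motif is in capitals, and the letters run 5′ to 3′ on the strand of the gene.
Eif4e (chr3:138527194-138527219, plus strand, 64 bases before a start): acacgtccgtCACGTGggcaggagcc
Eif4g1 (chr16:20672663-20672688, plus strand, 54 bases before a start): cagtgggtgtCACGTGatggggcgga
Eif4a1 (chr11:69672597-69672622, minus strand, 189 bases before the start): atcgcctccgCACGTGtaaaggtgct
Eif5a (chr11:69921445-69921470, minus strand, 74 bases before one of its starts): ggggcggggtCACGTGtgtgcgtcat
Eef2 (chr10:81176578-81176603, plus strand, 43 bases before the start): ccggcgccgtCACGTGacgcacccaa
The stress-linked motifs are shown for the 3 genes that held one, as the reverse complement of the letters above, because each lay on the other strand.
Eif2s3x (chrX:94212730-94212758, minus strand, C/EBP-ATF composite, 97 bases before a start): ttcgccatcaTTTTCATCAggtctatgcc
Eef2k (chr7:120851094-120851122, plus strand, C/EBP-ATF composite, 85 bases before a start): ctttctgcttGTTTCATCAagctcagctt
Eif3a (chr19:60790773-60790800, minus strand, XBP1 and ATF6 core, 97 bases before the start): gcacccagcgCCACGTCAgcccgcgctc
Starts are those of the RefSeq windows, and where the text says a start (or one of its starts) that start lies inside the annotated gene. A match is a description of these letters and not a binding site. The 12 tested members with an E box had a median log2 fold change of 0.11 and the 32 with a promoter entry and no E box 0.08. Eif4ebp1 and Eif1a, the members that were called, are among those without an entry and belong to neither class. Myc, whose protein binds the E box, was at 58.1, 64.4, 57.1 and 53.9 RPKM in the control libraries against 78.2, 59.1, 54.7 and 58.9 RPKM in the Sel1l CKO libraries (log2 fold change 0.09, limma adjusted p = 0.668).

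The 4E-BP genes held the largest difference of all members. Eif4ebp1 (ENSMUSG00000031490.6, GRCm38 chr8:27260329-27276674, plus strand) was at 0.831, 0.998, 1.16 and 0.973 RPKM in the control libraries against 3.07, 8.89, 5.09 and 5.26 RPKM in the Sel1l CKO libraries. All Sel1l CKO libraries lay far above all control libraries, with replicate 2 the highest and replicate 1 the lowest of them. The mean rose from 0.99 ± 0.134 to 5.58 ± 2.42 RPKM, a log2 fold change of 2.29 (SE 0.26, limma adjusted p = 0.000841), with a 95% interval of 3.24- to 7.41-fold. The control mean lay just under the filter of 1 RPKM, so that the gene was tested through its Sel1l CKO libraries. The p value of that fit therefore does not stand as support on its own. With no filter the gene was called as well (limma adjusted p = 0.011). By size of the log2 fold change it ranked 13 among the 6512 genes tested. The rise was there within replicates 1 and 2 (2.40) and within replicates 3 and 4 (2.18).

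Its paralogs did not share the rise. Eif4ebp2 was at 7.52, 8.63, 7.48 and 7.11 RPKM in the control libraries against 8.59, 7.92, 7.78 and 8.04 RPKM in the Sel1l CKO libraries. The groups overlapped, and the 95% interval of the difference ran from 0.938- to 1.18-fold (log2 fold change 0.07, limma adjusted p = 0.592). Eif4ebp3, which shares its strand with an overlapping gene model and held at most 40 reads, stayed under 1 RPKM with 0.113 to 0.53 RPKM in control and 0.0142 to 0.54 RPKM in Sel1l CKO (exact permutation test, two-sided, p = 0.343).

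The deposited RPKM divides by a length that includes introns. Levels of different genes were therefore compared as RPKM on the length of the longest RefSeq-matched transcript (transcript RPKM below). On this scale Eif4ebp1 made up 5.57%, 5.88%, 7.69% and 6.85% of the summed level of the 3 4E-BP genes in control replicates 1 to 4. In Sel1l CKO replicates 1 to 4 its share was 16.2%, 37.8%, 26.1% and 25.9%, so that Eif4ebp2 remained the more abundant transcript in every library. With all annotated exons as the length, the share went from a mean of 20.1% to 55.7%, and the order of both genes in Sel1l CKO therefore depended on the length used. The summed 4E-BP level was 5.0 ± 0.385 times that of Eif4e in control and 6.28 ± 0.695 times in Sel1l CKO, or 1.77 and 3.22 times with all annotated exons.

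**Figure D2:**
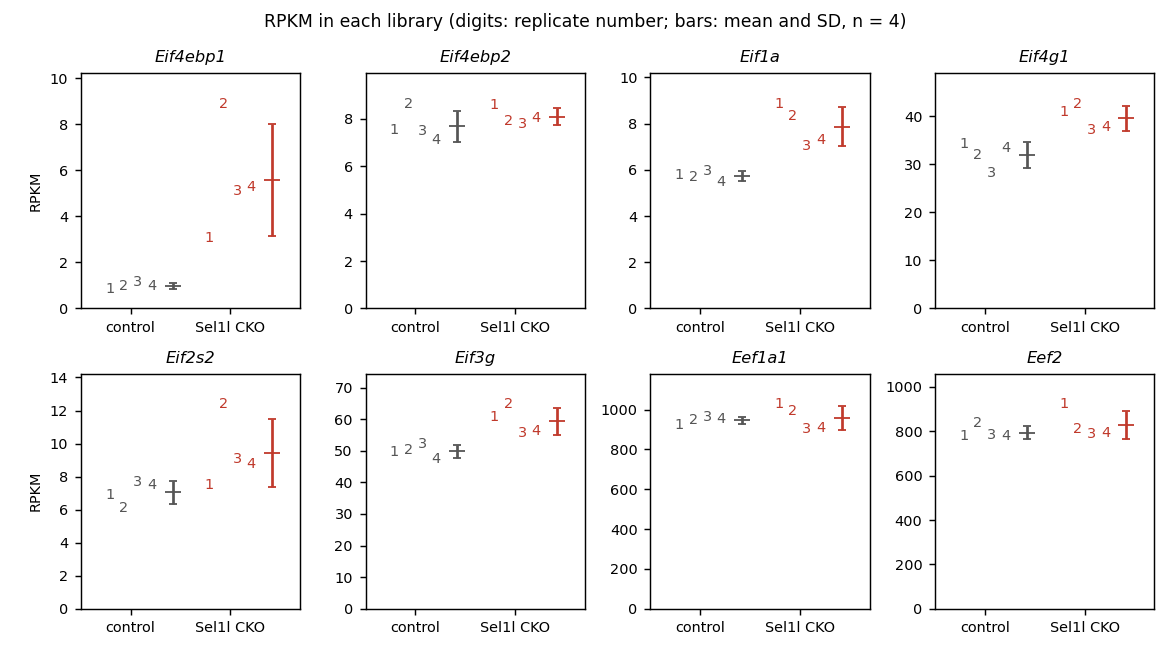
RPKM of 8 factor genes in each library, with the replicate number as the symbol and the mean with SD (n = 4) beside each group, on axes that start at 0. Eif4ebp1 is clear of control in all 4 Sel1l CKO libraries, Eif1a, Eif4g1 and Eif3g are higher without overlap, and Eef1a1 and Eef2 overlap.

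The genes of the eIF4 group showed no call in the fit on genotype alone, with 8 of 11 tested genes higher and a median log2 fold change of 0.04. Eif4e, which encodes the cap-binding protein that 4E-BP1 inhibits, was at 3.4, 3.55, 3.44 and 3.59 RPKM in the control libraries against 3.98, 4.48, 3.34 and 3.32 RPKM in the Sel1l CKO libraries. Sel1l CKO replicates 1 and 2 were above all control libraries and replicates 3 and 4 below them, and the 95% interval of the difference was 0.917- to 1.25-fold (limma adjusted p = 0.593). Its relatives Eif4e2, a cap-binding repressor (log2 fold change 0.03), and Eif4e3 (0.632 and 0.633 RPKM, under the filter, exact permutation test, two-sided, p = 0.971) had near-equal means, and the oocyte-type Eif4e1b was listed at 0 in all 8 libraries. Eif4enif1, which encodes the eIF4E transporter, had a log2 fold change of 0.04.

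Among the scaffolds, Eif4g1 came closest to the threshold, and some alternatives called it. It was at 34.3, 31.9, 28.2 and 33.4 RPKM in the control libraries against 41, 42.6, 37.2 and 37.8 RPKM in the Sel1l CKO libraries. The groups did not overlap, with a log2 fold change of 0.31 (SE 0.08, limma adjusted p = 0.0577). This difference was similar within replicates 1 and 2 (0.34) and within replicates 3 and 4 (0.29). With replicates 1 and 2 against 3 and 4 as a term in the fit Eif4g1 was called (limma adjusted p = 0.0247), as it was with voom or a mean of at least 5 RPKM. The replicate term came from these same values, so a call under it does not stand as support. Over all 20 alternatives the adjusted p of Eif4g1 ran from 0.0247 to 0.146. Eif4g3, a less abundant scaffold, lay in the other direction at 1.12 ± 0.0599 and 0.941 ± 0.0887 RPKM, without overlap and short of the threshold (log2 fold change -0.24, limma adjusted p = 0.167). Eif4g2 encodes DAP5, a scaffold that lacks the eIF4E-binding part, and was at 88, 91.3, 94.2 and 87.1 RPKM in the control libraries against 97.8, 98.3, 92.9 and 89 RPKM in the Sel1l CKO libraries. Those groups overlapped (log2 fold change 0.07, limma adjusted p = 0.538).

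The helicase genes differed in level more than between genotypes. Eif4a1, the main eIF4A gene, was at 286, 298, 293 and 295 RPKM in the control libraries against 332, 318, 279 and 274 RPKM in the Sel1l CKO libraries. As for Eif4e, the first 2 Sel1l CKO replicates exceeded every control library and the others fell short of them (log2 fold change 0.03, limma adjusted p = 0.832). Eif4a2 was at 57.3, 51.8, 74.8 and 63.8 RPKM in the control libraries against 48.4, 53, 54.8 and 56.2 RPKM in the Sel1l CKO libraries (log2 fold change -0.21, limma adjusted p = 0.316). The spread among control libraries was wider than the difference in means. Eif4a3, the helicase of the exon junction complex (0.15), and the eIF4A cofactors Eif4b (-0.02) and Eif4h (0.15) were not called, and Eif4a3l1, a close relative of Eif4a3, held at most 13 reads (exact permutation test, two-sided, p = 0.629). Since 67.5% of the 31-base words of the Eif4a1 transcript also occur in transcripts of other genes, mostly a pseudogene, its value carries the uncertainty of how shared reads were counted.

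The genes for start codon scanning gave the second call. Eif1a (ENSMUSG00000057561.10, GRCm38 chr18:46597701-46616456, plus strand) was at 5.78, 5.69, 5.96 and 5.49 RPKM in the control libraries against 8.85, 8.31, 7.02 and 7.3 RPKM in the Sel1l CKO libraries. All 4 Sel1l CKO libraries lay above the narrow control range. The mean rose from 5.73 ± 0.195 to 7.87 ± 0.857 RPKM, a log2 fold change of 0.45 (SE 0.08, limma adjusted p = 0.0137) with a 95% interval of 1.2- to 1.55-fold. The call was lost without control replicate 4 (limma adjusted p = 0.0509), and the difference was larger within replicates 1 and 2 (0.57) than within replicates 3 and 4 (0.32).

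The X-linked partner Eif1ax, which encodes another form of eIF1A, did not show this difference, with means of 6.41 ± 0.293 (control) and 6.08 ± 1.05 RPKM (Sel1l CKO; limma adjusted p = 0.687). Whether the 2 genes differ in their response was not tested. Eif1, which guards start codon choice, was at 188 to 276 RPKM in control and 236 to 254 RPKM in Sel1l CKO (log2 fold change 0.15). Its close relative Eif1b (0.12) and Eif1ad (0.20), a protein with an eIF1A-like domain, were also not called.

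The 3 subunits of eIF2, the target of PERK, were each higher in mean and none was called. Eif2s1, which encodes the phosphorylated α subunit, was at 5.56, 5.65, 5.43 and 5.88 RPKM in the control libraries against 6.46, 7.15, 5.8 and 5.24 RPKM in the Sel1l CKO libraries (log2 fold change 0.12, limma adjusted p = 0.495). Eif2s2, the β subunit gene, was at 6.91, 6.1, 7.67 and 7.48 RPKM in the control libraries against 7.51, 12.4, 9.05 and 8.75 RPKM in the Sel1l CKO libraries. Replicate 2 was the highest Sel1l CKO library for both, and for Eif2s2 the groups overlapped only between Sel1l CKO replicate 1 and control replicate 3 (log2 fold change 0.40, SE 0.14, limma adjusted p = 0.161). Eif2s2 lies across the gene nonagouti on the other strand, and 32.1% of its 31-base words occur in a pseudogene, so this value has an added uncertainty.

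Eif2s3x, the X-linked γ subunit gene, was at 5.67, 5.54, 5.07 and 5.6 RPKM in the control libraries against 6.34, 6.55, 5.47 and 5.59 RPKM in the Sel1l CKO libraries (log2 fold change 0.13, limma adjusted p = 0.393). Sel1l CKO replicates 3 and 4 fell inside the control range, and 36.9% of the 31-base words of Eif2s3x occur in other genes. Eif2a and Eif2d encode proteins that can bring initiator or other tRNAs to the ribosome without eIF2, and they lay in opposite directions. Eif2d was at 1.59 ± 0.108 and 1.9 ± 0.142 RPKM without overlap (log2 fold change 0.25, limma adjusted p = 0.123), and Eif2a was at 2.9 ± 0.29 and 2.48 ± 0.198 RPKM with overlap (log2 fold change -0.21, limma adjusted p = 0.221).

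The eIF2B genes, whose complex recharges eIF2 with GTP, showed a median log2 fold change of 0.06 over 4 tested genes, from -0.04 for Eif2b2 to 0.16 for Eif2b5. Eif2b5, the catalytic ε subunit gene, was at 10.7, 10.5, 10.1 and 10.6 RPKM in the control libraries against 12.9, 12.5, 11.1 and 10.5 RPKM in the Sel1l CKO libraries (limma adjusted p = 0.264). Eif2b1, the α subunit gene, was at 7.9, 7.21, 6.75 and 7.65 RPKM in the control libraries against 7.85, 9.17, 7.31 and 6.63 RPKM in the Sel1l CKO libraries (limma adjusted p = 0.765). Both overlapped between genotypes. Eif2b3 was under the filter, at 0.348 ± 0.0162 and 0.415 ± 0.0603 RPKM (exact permutation test, two-sided, p = 0.0857).

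The subunits of eIF3, the scaffold of the small ribosomal subunit, did not differ as 1 block. Of 14 genes, 10 were higher, 4 of these (Eif3b, Eif3c, Eif3d and Eif3g) without overlap, and 0 were called, with a median log2 fold change of 0.08. Eif3b, a core subunit, was at 22.3, 22.2, 19.9 and 22.6 RPKM in the control libraries against 29.2, 28.8, 24.3 and 23.7 RPKM in the Sel1l CKO libraries (log2 fold change 0.28, limma adjusted p = 0.112). Eif3g, which contacts the mRNA entry side, had the smallest adjusted p of the complex, at 49.8 ± 1.98 and 59.3 ± 4.27 RPKM (log2 fold change 0.25, limma adjusted p = 0.0742). Eif3c (0.29, limma adjusted p = 0.0871) and Eif3d (0.18, limma adjusted p = 0.13), a subunit that can itself bind the cap, followed. With replicates 1 and 2 against 3 and 4 as a term, a grouping read from these values, Eif3b (limma adjusted p = 0.0404) and Eif3g (limma adjusted p = 0.0454) were called. These calls do not stand as support. Over all alternatives the adjusted p ran from 0.0404 to 0.256 for Eif3b and from 0.0416 to 0.186 for Eif3g.

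Eif3a, the largest subunit, was at 19.9, 16.2, 17 and 18.2 RPKM in the control libraries against 18.4, 22.1, 18.8 and 20.1 RPKM in the Sel1l CKO libraries (log2 fold change 0.15, limma adjusted p = 0.357). The groups overlapped, as they did for Eif3e (-0.03), Eif3f (-0.05), Eif3h (0.01), Eif3i (0.11), Eif3k (0.06), Eif3l (0.02) and Eif3m (0.09). The 2 genes for the loosely bound j subunit cannot be read apart, since 94.0% of the 31-base words of Eif3j2 occur in Eif3j1. Eif3j2 was at 0.693, 4.51, 1.61 and 5.2 RPKM in the control libraries against 1.24, 1.57, 1.06 and 4.09 RPKM in the Sel1l CKO libraries, a spread within genotypes far above the difference between them. Summed over both genes the reads were 61.3 ± 6.37 RPM (reads scaled to library size alone) in control and 58.5 ± 9.87 RPM in Sel1l CKO.

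In the group of eIF5, eIF5A and eIF6 genes, Eif5a was among the most abundant of all factors. It was at 291, 298, 293 and 308 RPKM in the control libraries against 365, 367, 289 and 281 RPKM in the Sel1l CKO libraries. Sel1l CKO replicates 1 and 2 were above, and replicates 3 and 4 below, every control library (log2 fold change 0.12, limma adjusted p = 0.513). Its protein carries hypusine and helps ribosomes through difficult peptide bonds. Eif6, which keeps large subunits from joining early, was at 17.3 ± 1.22 and 20.8 ± 1.81 RPKM (log2 fold change 0.26, limma adjusted p = 0.110). Eif5, the activator of eIF2 GTP hydrolysis (-0.02), and Eif5b, the joining factor (-0.17), were not called, and Eif5a2 was under the filter at 0.331 and 0.332 RPKM (exact permutation test, two-sided, p = 0.971).

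The elongation factor genes spanned a narrow range of log2 fold changes, from -0.03 to 0.13 over 6 genes, with a median of 0.08 and 0 calls. Eef1a1 (ENSMUSG00000037742.14, GRCm38 chr9:78478449-78489151, minus strand) was at 920, 946, 962 and 953 RPKM in the control libraries against 1027, 991, 905 and 909 RPKM in the Sel1l CKO libraries. Its difference had a 95% interval of 0.922- to 1.11-fold (limma adjusted p = 0.894), on 318614 to 534634 reads per library. Eef2 was at 778, 836, 781 and 777 RPKM in the control libraries against 922, 809, 788 and 791 RPKM in the Sel1l CKO libraries, with an interval of 0.939- to 1.16-fold (limma adjusted p = 0.640). Sel1l CKO replicate 1 was the highest library for both. The subunits of the eEF1B exchange complex were at log2 fold changes of 0.09 (Eef1b2), 0.10 (Eef1d) and -0.03 (Eef1g), and Eef1e1, a partner of the tRNA synthetase complex, was at 0.13. Pseudogenes share 72.3% of the 31-base words of Eef1a1, which leaves its level less certain than its depth.

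Of the enzymes that modify elongation factors, Eef2k, the kinase that inactivates eEF2, was at 3.71, 4.18, 4.18 and 3.65 RPKM in the control libraries against 3.63, 3.54, 4.4 and 4.7 RPKM in the Sel1l CKO libraries. Here Sel1l CKO replicates 3 and 4 were above, and replicates 1 and 2 below, all control libraries (log2 fold change 0.04, limma adjusted p = 0.851). The methyltransferase genes Eef1akmt1 (0.04), Eef1aknmt (0.13) and Eef2kmt (0.23) were not called. Eef1akmt2 was at 0.669 and 0.667 RPKM (exact permutation test, two-sided, p = 0.943), and Eef1akmt3 held 0 to 22 reads per library (exact permutation test, two-sided, p = 0.0571).

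Many of these genes shared a pattern over the replicates. Within replicates 1 and 2 the median log2 fold change of the 55 tested members was 0.20, and within replicates 3 and 4 it was -0.00. The signed log2 fold change was higher within replicates 1 and 2 for 52 of the 55 members (94.5%), against 51.9% of all tested genes. The exceptions were Eef2k, Eif4ebp2 and Eif4g3. A higher value can be a smaller fall, as for Eif4a2 (-0.11 against -0.32). Relative to the control mean, the members without Eif4ebp1 stood on average 0.134 and 0.176 higher (log2) in Sel1l CKO replicates 1 and 2, and at -0.006 and 0.006 in replicates 3 and 4. The factor genes thus took 3.55% and 3.47% of all reads in Sel1l CKO replicates 1 and 2, against 3.15% and 3.14% in replicates 3 and 4 and 3.12% to 3.21% in control. Among those higher within replicates 1 and 2, the values of both pairs lay closest for Eif3a (0.17 and 0.14), Eif3f, Eif2d (0.27 and 0.23) and Eif4g1 (0.34 and 0.29).

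**Figure D3:**
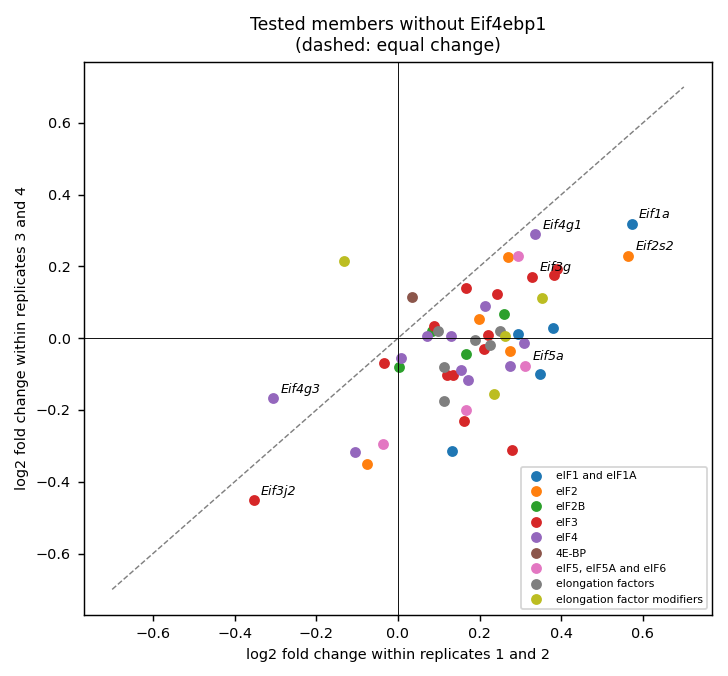
Log2 fold change of each tested factor gene except Eif4ebp1 within replicates 1 and 2 (horizontal) against that within replicates 3 and 4 (vertical), each from 2 libraries a genotype, with colours for the roles. Most points lie to the right of 0 and below the dashed line of equal change, and Eif4g1 lies near the line.

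For the ribosomal protein genes, the other large class of translation genes, the signed log2 fold change was higher within replicates 1 and 2 for 81 of 82 tested genes (98.8%). Their mean difference from the control mean (log2) was 0.165 and 0.047 in Sel1l CKO replicates 1 and 2, and control replicate 3, at 0.130, lay above the latter. For the 11 proliferation markers (such as Mki67, Top2a and Mcm5) the signed log2 fold change was higher within replicates 1 and 2 for 10. It was higher there for 3 of the 7 MYC and growth-linked genes, namely Myc, Max and Mycn (the last a smaller fall, -0.71 against -0.98). Among the genes that act on eIF4 it was higher there for 6 of 15. Both lists mix activators with inhibitors, so these counts have no single direction. The proliferation markers stood at 0.120, 0.016, -0.295 and 0.159 relative to the control mean (log2) in control replicates 1 to 4 and at 0.380, 0.450, -0.062 and -0.094 in Sel1l CKO replicates 1 to 4. No proliferation marker was called between genotypes, and their median log2 fold change was 0.19. The part of the proliferation level in the factor genes' values was not tested.

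**Figure D4:**
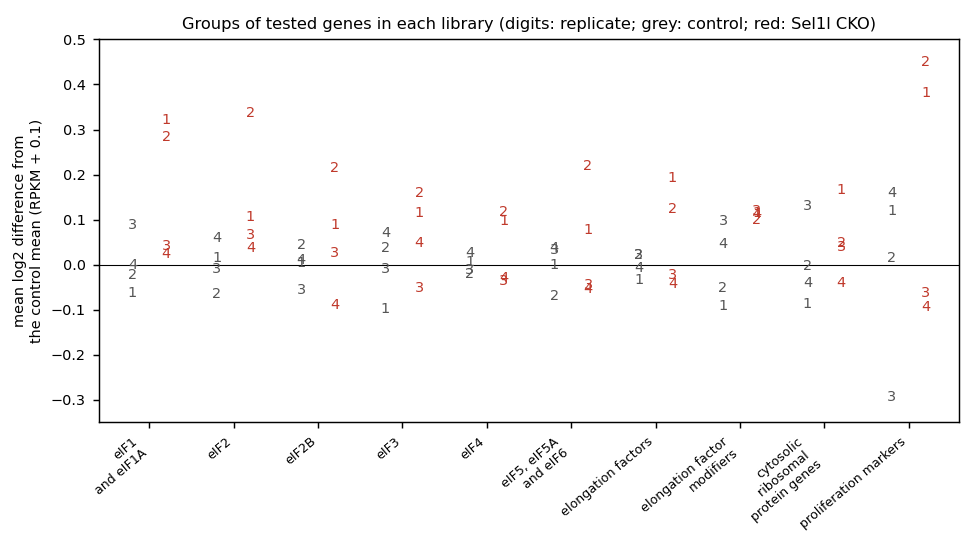
Mean log2 difference from the control mean for each group of tested factor genes other than 4E-BP, the ribosomal protein genes and the proliferation markers, with the replicate number as the symbol, control in grey and Sel1l CKO in red. Sel1l CKO replicates 1 and 2 are the highest libraries in every plotted group but the elongation factor modifiers and the ribosomal protein genes, and replicates 3 and 4 lie within the control range in some groups (eIF3, proliferation markers) and outside it in others (both below it for eIF4, at -0.036 and -0.030).

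The levels of the factors in transcript RPKM ranged widely in control. Eef1a1 was the highest at 5640 ± 108, followed by Eef2 at 1509 ± 55.2, Eif5a at 1086 ± 26.7 and Eif4a1 at 907 ± 15.2. These 4 did not overlap in any control library. The 12 eIF3 subunit genes other than Eif3j1 and Eif3j2 lay together between 103 (Eif3a) and 285 (Eif3h), a 2.76-fold range. The 3 eIF2 subunit genes were lower, at 59.6 ± 5.97 (Eif2s2), 41.6 ± 1.4 (Eif2s1) and 36.2 ± 1.81 (Eif2s3x) with no overlap between their control libraries. Eif4a1 stood 5.92-fold above Eif4a2 and 38.6-fold above Eif4e, whose level was 23.5 ± 0.603. Eif1a (25.1 ± 0.855) and Eif1ax (22 ± 1.01) each overlapped Eif4e in control. Eif4ebp1 went from 7.6 ± 1.03 to 42.8 ± 18.6, above the mean of Eif4e. Sel1l CKO replicate 1 was at 23.6 for Eif4ebp1 and at 26.8 for Eif4e, and the other Sel1l CKO libraries had more Eif4ebp1 than Eif4e.

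**Figure D5:**
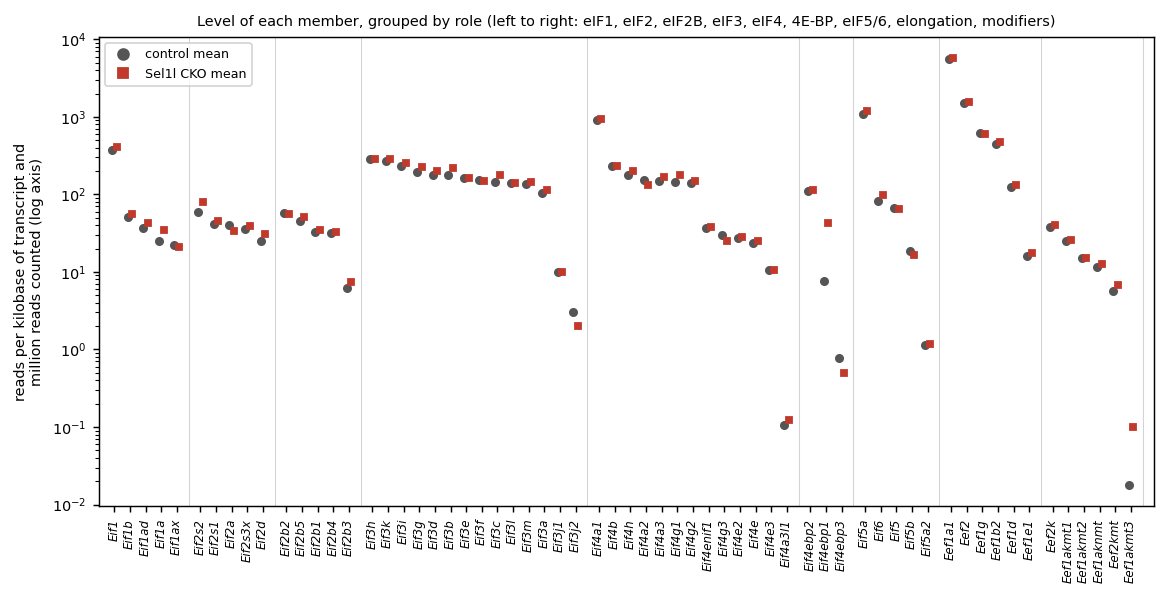
Mean level of each factor gene with reads, in transcript RPKM on a log axis, for control (circles) and Sel1l CKO (squares), ordered within each role. The elongation factor Eef1a1 is the highest at 5640 in control, and the pair of symbols separates most for Eif4ebp1 among genes above 1. The eIF3 subunits other than Eif3j1 and Eif3j2 form a narrow band from 103 to 285 in control, and Eif3j1 and Eif3j2 lie below it.

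The rest of the translation machinery showed few calls. Among 82 tested ribosomal protein genes 2 rose (Rpl10 and Rpl36al), 0 fell, and the median log2 fold change was 0.05. Of 13 tested termination, recycling and poly(A)-binding genes, 6 hypusine and diphthamide enzyme genes and 6 mitochondrial translation factor genes, 0 were called. Of 7 MYC and growth-linked genes 0 were called, with Mycn at 2.42 to 5.33 RPKM in control and 1.47 to 2.21 RPKM in Sel1l CKO (log2 fold change -0.84, limma adjusted p = 0.0892). Among 15 genes that act on eIF4 through mTORC1, MNK or PDCD4, 1 rose. This was Sesn2, which had a control mean of 0.5 RPKM and passed the filter only through its Sel1l CKO libraries, so that it had to differ. Sesn2 encodes an inhibitor of mTORC1 signalling and was at 0.587, 0.494, 0.531 and 0.389 RPKM in the control libraries against 1.05, 2.01, 1.41 and 1.53 RPKM in the Sel1l CKO libraries. It rose without overlap by a log2 fold change of 1.39 (SE 0.18, limma adjusted p = 0.00178). All 14 alternatives that tested it called it, and of the Sel1l CKO libraries replicate 2 was its highest and replicate 1 its lowest. Of 4 tested genes for eIF2α kinases and phosphatase subunits, Eif2ak3 (PERK) rose, from a mean of 0.832 ± 0.0808 to 1.3 ± 0.205 RPKM without overlap (log2 fold change 0.58, SE 0.12, limma adjusted p = 0.0238). Over its 19 alternatives the adjusted p ran from 0.000888 to 0.0754, and 14 of them called it. Replicates 1 and 2 alone gave 0.41 and replicates 3 and 4 alone 0.74. Eif2ak3, too, passed the filter only through its Sel1l CKO libraries. Most alternatives kept a filter on the mean, so for Sesn2 and Eif2ak3 these p values and counts of alternatives do not stand as support.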

How the data were processed

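DN3 thymocyte RNA was sequenced by the authors in 4 control and 4 Sel1l CKO libraries. The authors aligned reads with STAR 2.5.2b to GRCm38, counted them with HTSeq 2.7 and tested with DESeq2, per the submitters' processing notes, and the deposited file holds RPKM values, 1 column per library. Whether counting used the strand is not given in the sources used here. The values were found to be whole reads (tolerance 0.05) divided by a length that includes introns, with the annotated span (GENCODE M21) for 40 members and a length solved from the values for 22, so reads per library and levels per transcript length could be recovered. Where a gene lies over another or shares sequence with a copy, its value is uncertain. There were 4 members that overlap a gene on the same strand, 13 that overlap one on the other strand, and 15 with over 25% of 31-base words found elsewhere. These 15 were Eif1, Eif2s2, Eif2s3x, Eif3e, Eif3h, Eif3j1, Eif3j2, Eif3m, Eif4a1, Eif4a3, Eif4a3l1, Eif4ebp3, Eef1a1, Eef1d and Eef1g.

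The deposited RPKM values were transformed to log2(RPKM + 0.1), a scale that understates changes of low genes. The fit took all genes whose mean reached 1 RPKM and used limma 3.58.1 (moderated test with trend, genotype only, two-sided, Benjamini-Hochberg over all genes tested) in R 4.3.3. The method was tested on simulated data. Single genes under the filter had exact permutation tests over the 70 assignments (smallest p 0.0286). No test was run over lists. Promoter sequences were RefSeq entries. Python 3.11.15, numpy 2.4.6, pandas 2.3.3, scipy 1.17.1 and matplotlib 3.10.9 were used.

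Every library is given for members past the adjusted p and for a set of core subunits (Eif2s1, Eif2s2, Eif2s3x, Eif2b1, Eif2b5, Eif3a, Eif3b, Eif4e, Eif4a1, Eif4a2, Eif4g1, Eif4g2, the Eif4ebp genes, Eif5a, Eef1a1, Eef2 and Eef2k). The members, lists and this rule were chosen with earlier results of these data known. Lists covered ribosomal proteins, termination and recycling, mTORC1 control of eIF4, hypusine and diphthamide enzymes, mitochondrial factors, MYC-linked genes, eIF2α kinases and phosphatase subunits, proliferation, and markers of DN3, later thymocyte, B, plasma, myeloid, erythroid and stromal cells. The later thymocyte markers (3 tested) and the plasma cell markers (1 tested) had 0 calls, and of 2 tested stromal markers Epcam fell. Alternatives were other pseudocounts, filters, scalings, limma settings, replicate terms, voom on recovered reads, and leaving out each library.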

Additional observations from a re-analysis of the deposited data

Results flagged for a closer look

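In 7 of 124 groups of 4 libraries (each member in each genotype), 1 library stood far from the others, by Dixon's test at the 95% level on the gap to its nearest neighbour. Chance gives about 1 in 20, which is 6.2 groups. Eif5, the activator of GTP hydrolysis on eIF2, was at 36.3 RPKM in Sel1l CKO replicate 2 and at 28.7 to 29.3 RPKM in the other libraries of that group. Eif5b was low in control replicate 2, at 2.10 RPKM against 2.63 to 2.71 RPKM. Eef2 was high in control replicate 2, at 836 RPKM against 777 to 781 RPKM, and in Sel1l CKO replicate 1, at 922 RPKM against 788 to 809 RPKM. Eif3b was low in control replicate 3, at 19.9 RPKM against 22.2 to 22.6 RPKM. Eif3j2, nearly all of whose sequence is shared with Eif3j1, was at 4.09 RPKM in Sel1l CKO replicate 4 against 1.06 to 1.57 RPKM. Eef1akmt3 was at 0.0162 RPKM in control replicate 3 against 0 to 0.00234 RPKM, a difference of a few reads.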

How the results depend on the processing

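Eif4ebp1 was called under every alternative that tested it (19 of 20, all but a mean RPKM of at least 5). Its log2 fold changes were 1.66 to 2.54 and its limma adjusted p values 7.06e-06 to 0.011. Most of these alternatives kept a filter on the mean, which the gene passed only through its Sel1l CKO libraries. Their p values and their count therefore do not stand as support. With no filter it was called as well (limma adjusted p = 0.011). The rise of Eif1a was called under 19 of 20, and the call was lost without control replicate 4 (limma adjusted p = 0.0509). Members that rose numbered 2 in most settings, 4 with array weights (adding Eif2s2 and Eif3g), 5 with replicates 1 and 2 against 3 and 4 as a term (adding Eif3b, Eif3g and Eif4g1), and 1 to 2 when 1 library was left out. Eif4g1 was also past the threshold with a mean RPKM of at least 5 and with voom. The number that fell was 0 throughout. Of 1084 values of single members under alternatives, 1034 kept direction and side of the threshold, and the cause of the other shifts was not tested. Over all tested genes, 278 rose and 66 fell, against 458 and 182 with array weights, 182 and 36 at a mean RPKM of at least 5, 343 and 182 with the replicate term, 341 and 162 with voom, and 262 and 102 with quantile normalization, with 204 to 254 and 31 to 75 when 1 library was left out. The genes that fell dropped to 34, 34, 31 and 40 without control replicates 1 to 4 in turn and to 40 and 44 without Sel1l CKO replicates 1 and 2.

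Replicate numbers are shared by both genotypes. The correlations of same-numbered libraries were 0.16, 0.097, 0.44 and 0.005, and replicate 3 alone correlated best with its own number, so the numbers were not taken as pairs. The fit with the replicate block gave 2 members that rose and 0 that fell.

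Group medians of log2 fold changes moved by more than the spread as follows. The 4E-BP median was 0.86 with a pseudocount of 1 and 0.074 with no filter, a mean of at least 5 or voom (1, 2 or 3 genes enter it). Array weights gave 0.057 for eIF1, 0.024 for eIF2, -0.014 for eIF2B, -0.030 for eIF4, -0.037 for eIF5, eIF5A and eIF6 and 0.0048 for elongation factors. Quantile normalization gave 0.078 for eIF1, 0.0061 for eIF2B and 0.032 for elongation factors. A mean of at least 5 gave 0.067 for eIF4 and 0.12 for eIF5, eIF5A and eIF6, which stood at -0.016 with no filter. With 1 library left out, the medians ran from 1.06 to 1.29 (4E-BP), 0.082 to 0.19 (eIF2), -0.011 to 0.11 (eIF2B), 0.016 to 0.075 (eIF4), -0.021 to 0.098 (eIF5, eIF5A and eIF6) and 0.029 to 0.095 (elongation factors).

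Differences near 0 changed sign. With array weights these were Eef1a1 (-0.037), Eef1akmt1 (-0.012), Eef1d (-0.0035), Eif2b1 (-0.051), Eif3h (-0.036), Eif3l (-0.071), Eif4a1 (-0.050), Eif4e (-0.030), Eif4e2 (-0.0905) and Eif5a (-0.017), with quantile normalization Eif2b4 (-0.0037), Eif3h (-0.004), Eif3j1 (0.001), Eif3k (-0.0034) and Eif3l (-0.0324), and with voom Eif3j1 (0.0066). With 1 library left out the ranges were -0.017 to 0.044 (Eef1a1), -0.019 to 0.099 (Eef1akmt1), -0.097 to 0.0032 (Eef1g), -0.031 to 0.10 (Eef2k), -0.022 to 0.13 (Eif2b1), -0.0004 to 0.096 (Eif2b4), -0.075 to 0.014 (Eif3e), -0.0305 to 0.039 (Eif3h), -0.13 to 0.13 (Eif3j1), -0.024 to 0.055 (Eif3l), -0.017 to 0.075 (Eif4a1), -0.020 to 0.087 (Eif4e2) and -0.098 to 0.040 (Eif5). Reads were few for Eif4ebp3 (1 to 40 per library) and Eef1akmt3 (0 to 22), and among tested members fewest for Eif3j2 (67 to 513).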
